A study of Mus musculus with 8 samples.

Results

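Genes that mark the entry and the activation of macrophages and monocytes were compared between retina libraries labelled AAV2-shCX36 and AAV2-scramble. The 9 genes are Ccr2, Ly6c2, Chil3, Arg1, Mrc1, Cst7, Lgals3, Cd68 and Lyz2, among 24860 gene symbols listed. They were chosen by name, and because their AAV2-shCX36 and AAV2-scramble levels in these same libraries were known to move in opposite directions. Their differences are therefore described and carry no test. AAV2-shCX36 is an adeno-associated virus of serotype 2 that delivers a short hairpin RNA against connexin 36, the gap junction protein of retinal neurons encoded by Gjd2. AAV2-scramble delivers a control hairpin in the same vector. There were 4 mouse libraries of each group, labelled retina as tissue and RGCs (retinal ganglion cells) as cell type. The labels give no strain, age, injury or time after injection. They do not tie mice to libraries, so each spread and each p is one between libraries.

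Monocytes leave the blood for an injured tissue when the receptor CCR2 senses chemokines such as CCL2 and CCL7, and the inflammatory subset carries Ly6C on its surface. Once in the tissue, macrophages can take different states. Interleukin 4 and interleukin 13, acting through the transcription factor STAT6, induce Arg1, Chil3 and Mrc1 in mouse macrophages, a state called alternative activation, whereas bacterial products and interferon gamma induce Il1b and Nos2. Resident microglia near damaged neurons lose homeostatic genes such as P2ry12 and gain Cst7 and Lgals3, among others. Cd68 and Lyz2 are lysosomal and secretory genes that microglia, monocytes and macrophages share.

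Several of these genes have near-identical relatives, and reads can be told apart only where the copies differ. The stretches where each pair differs most are shown because the Ly6c2 and Chil3 differences depend on reads being given to the right copy. Each is 60 bases of coding sequence, 5′ to 3′, from GENCODE M21 transcripts of GRCm38, with the bases that differ between the copies in capitals.
Ly6c2: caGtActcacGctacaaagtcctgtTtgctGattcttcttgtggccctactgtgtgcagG
Ly6c1: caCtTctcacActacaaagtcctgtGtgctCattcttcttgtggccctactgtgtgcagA
Chil3: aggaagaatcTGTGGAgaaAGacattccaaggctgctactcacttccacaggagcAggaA
Chil4: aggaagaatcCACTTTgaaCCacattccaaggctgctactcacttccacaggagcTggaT
Lyz2: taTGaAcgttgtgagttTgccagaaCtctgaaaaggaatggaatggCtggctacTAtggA
Lyz1: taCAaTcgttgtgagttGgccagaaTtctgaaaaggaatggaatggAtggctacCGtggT

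Ly6c2 and Ly6c1 shared 97.7% of their 396 coding bases, and 6 of their 9 differences lie in the 60 bases shown (coding bases 6 to 65, chromosome 15). Chil3 and Chil4 were 95.3% identical over 1197 aligned bases (shown: coding bases 500 to 559, chromosome 3), and Lyz2 and Lyz1 were 95.1% identical over 447 bases (shown: 61 to 120, chromosome 10). Of all stretches of 100 bases in the annotated transcript, 15.8% of those of Ly6c2 also occur in another gene, Ly6c1 being the one that shares most. The same share was 5.42% for Chil3 (Chil4), 1.97% for Lyz2 (Lyz1), and 0 for Arg1, Mrc1, Cst7, Lgals3 and Cd68. Chil4 was not analysed here.

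The 250 bases before the annotated start are shown for Chil3 and Lgals3, 1 gene lower and 1 gene higher in AAV2-shCX36 libraries, from RefSeq on GRCm38.p6 and written 5′ to 3′ on the gene's own strand. Capitals mark the matches to 6 motifs that were searched on both strands in the 8 of 9 genes with a promoter entry, all but Arg1.
Chil3, chr3:106167565-106167814, minus strand: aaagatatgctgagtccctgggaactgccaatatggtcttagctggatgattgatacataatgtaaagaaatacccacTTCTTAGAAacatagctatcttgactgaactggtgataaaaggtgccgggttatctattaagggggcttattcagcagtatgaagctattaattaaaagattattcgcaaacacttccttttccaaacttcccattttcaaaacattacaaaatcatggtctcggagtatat
Lgals3, chr14:47373610-47373859, plus strand: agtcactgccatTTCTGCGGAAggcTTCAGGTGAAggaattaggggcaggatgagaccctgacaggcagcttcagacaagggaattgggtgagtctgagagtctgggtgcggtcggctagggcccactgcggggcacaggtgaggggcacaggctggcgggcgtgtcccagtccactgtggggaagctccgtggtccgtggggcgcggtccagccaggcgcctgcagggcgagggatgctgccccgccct

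The capitals in Chil3 are the STAT site TTCNNNGAA, named GAS, 172 to 164 bases before the start, a pattern that 7.02% of 32851 promoters of this length hold. The capitals in Lgals3 are 2 copies of the STAT6 pattern, TTC and GAA with 4 bases of any kind between them, 238 to 229 and 225 to 216 bases before the start, which 5.85% of promoters hold. Cd68 had 1 C/EBP pattern (TTGCNNAA, 9.56% of promoters) and 2 AP-1 patterns (TGANTCA, 6.75%). Ly6c2 had the PU.1 pattern GAGGAAGT (2.44% of promoters) before each of its 2 annotated starts. No match to these patterns or to the interferon pattern ISRE (GAAA and GAAA with 2 bases between them, 2.98% of promoters) was found in the windows of Ccr2, Cst7, Lyz2 or Mrc1. A match is a run of letters and not a measured binding site.

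Levels are given in FPKM, fragments scaled by transcript length and by library depth, so that genes of different length can be compared. The whole fragments behind each FPKM value could be recovered, because the values of a gene in the 8 libraries were whole multiples of a common step (within 0.02 of a fragment) for 24860 of 24860 genes. The recovered totals were 35820783 to 38890840 fragments per library. Gjd2, the targeted gene, had 2145, 1738, 1788 and 2061 fragments in AAV2-shCX36 libraries 1 to 4, against 4859, 4257, 2176 and 2346 in AAV2-scramble libraries 1 to 4, or a mean of 15.6 and 27.5 FPKM. The groups did not overlap, but AAV2-scramble 3 and 4 lay close to the AAV2-shCX36 libraries.

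The libraries held more than ganglion cells. Summed over 9 genes of Müller glia, the level was 371 to 590 FPKM in AAV2-shCX36 and 613 to 1009 FPKM in AAV2-scramble libraries. The sum over 11 ganglion cell genes was 2567 to 2760 FPKM in AAV2-shCX36 and 1579 to 2724 FPKM in AAV2-scramble libraries. By limma's adjusted p, 4 of these 9 Müller genes and 6 of 9 rod genes fell in AAV2-shCX36 libraries, with median log2 differences of -0.86 and -0.76, and 0 of 11 ganglion cell genes passed (5 at an unadjusted p under 0.05; voom, 0). The part of such cell type shifts in the myeloid results was not tested. AAV2-scramble 1 and 2 stood apart from the other control pair. Summed over 18 genes that myeloid cells share (Ptprc, Itgam, Aif1, Csf1r and others, without the 9 genes), the level was 366, 344, 355 and 524 FPKM in AAV2-shCX36 libraries, against 1046, 998, 558 and 258 FPKM in AAV2-scramble libraries. Oligodendrocyte genes summed to 10.7 to 12.1 FPKM in AAV2-shCX36 libraries, against 57.3 and 183 FPKM in AAV2-scramble 1 and 2 and 11.5 and 11.6 FPKM in AAV2-scramble 3 and 4. For the recruitment, classical activation, pan-myeloid and homeostatic microglia lists, and for some genes, values without a pair of control libraries are given beside the result. Those of the other lists and genes are not given, and their calls may also depend on the pair. In such bulk libraries, fewer cells of a type and less RNA per cell cannot be told apart.

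Ccr2, Ly6c2, Arg1, Cst7 and Lgals3 were higher in every AAV2-shCX36 library than in every AAV2-scramble library, Chil3 was lower in every one, and Mrc1, Cd68 and Lyz2 overlapped between the groups. Of the 12858 genes whose mean reached 1 FPKM, 15.9% were separated in this way, 8.85% with AAV2-shCX36 higher and 7.05% with AAV2-shCX36 lower, and of all genes listed 10.4% were. Since the genes were chosen on this contrast, nothing is read from their share. 7 of the 9 genes reached that mean, and Ccr2 and Mrc1 did not.

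**Figure D1:**
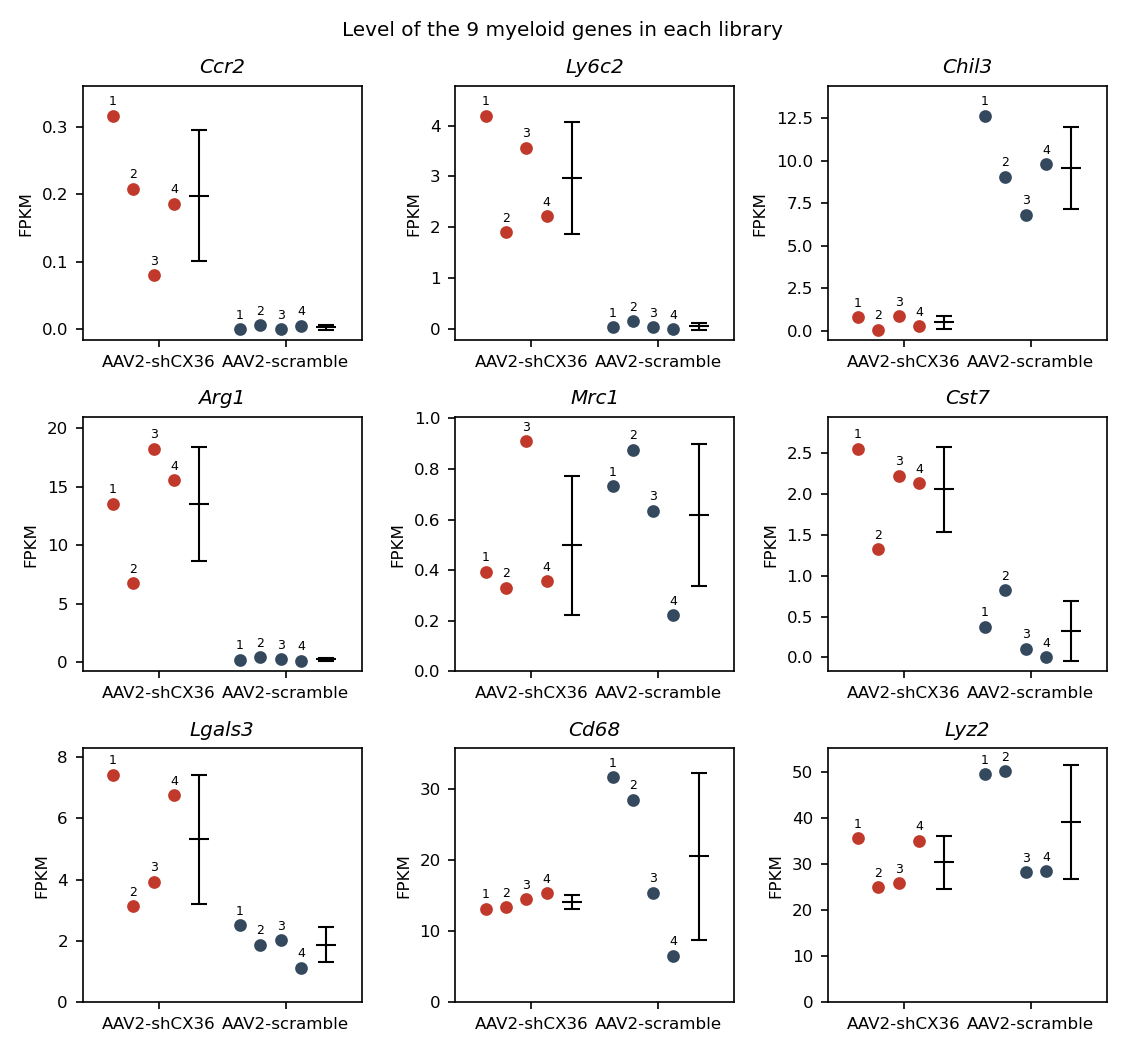
Level of each of the 9 genes in FPKM (linear axes that differ between panels) in the 4 AAV2-shCX36 libraries (red) and the 4 AAV2-scramble libraries (dark), numbered 1 to 4, with the mean and SD as a bar beside the points. Ccr2, Ly6c2, Arg1, Cst7 and Lgals3 are higher and Chil3 lower in all AAV2-shCX36 libraries, while Cd68 and Lyz2 are highest in AAV2-scramble 1 and 2.

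Among the recruitment genes, Ccr2 (chr9:124101918-124109140) is the chemokine receptor that monocytes need to leave the bone marrow and enter tissue. It had 0.316, 0.208, 0.0801 and 0.186 FPKM in AAV2-shCX36 libraries, against 0, 0.00590, 0 and 0.00543 FPKM in AAV2-scramble libraries. These low levels rest on 57, 37, 14 and 33 fragments in AAV2-shCX36 libraries and on 0, 1, 0 and 1 fragments in AAV2-scramble libraries. The receptor transcript was thus present in every AAV2-shCX36 library, at a low level, and at or near 0 in every AAV2-scramble library. The ratio of the summed fragments, 141 against 2 and scaled by depth, was 70.7, with a 95% exact interval of 19.2 to 590 that covers counting error only.

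Ly6c2 (chr15:75108161-75112066) encodes the Ly6C protein by which inflammatory monocytes are sorted. Its level was 4.20, 1.90, 3.57 and 2.22 FPKM in AAV2-shCX36 libraries, against 0.0284, 0.151, 0.0285 and 0 FPKM in AAV2-scramble libraries. That was 148, 66, 122 and 77 fragments in AAV2-shCX36 libraries, against 1, 5, 1 and 0 in AAV2-scramble libraries, a ratio of sums of 59.2 (exact interval 28.5 to 148). The groups were far apart, with no control library above 5 fragments. On the log2(FPKM + 1) scale, which understates the change of genes this low, the difference was 1.88 for Ly6c2 and 0.25 for Ccr2.

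Ly6c1, the near-copy that blood vessel endothelium expresses, did not follow Ly6c2. It had 14.6, 13.4, 14.1 and 28.2 FPKM in AAV2-shCX36 libraries, against 29.9, 38.1, 6.55 and 4.58 FPKM in AAV2-scramble libraries (log2 difference 0.24, limma adjusted p = 0.849). Its highest levels stood in AAV2-scramble 1 and 2, the libraries where Ly6c2 had 1 and 5 fragments. The direction of Ly6c1 depends on which controls are used, with a log2 difference of -0.97 (limma adjusted p = 0.0325) without AAV2-scramble 3 and 4.

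The other monocyte recruitment genes were read from a list of 18, of which 10 reached a mean of 1 FPKM. At an adjusted p under 0.05 in limma, 288 of all 12858 genes tested (2.24%) rose in AAV2-shCX36 libraries and 324 (2.52%) fell, 4.76% together, and the median log2 difference was 0.01. The share of all genes at an unadjusted p under 0.05 is not given here. Trem2, with an unadjusted limma p of 0.0482, had an adjusted p of 0.217, so such p were common over all genes. Nothing is therefore read from counts at an unadjusted p, here or elsewhere. In the list, 3 of 10 genes rose and 0 fell, 5 had an unadjusted p under 0.05, and the median log2 difference was 0.59. That median was -0.18 without AAV2-scramble 3 and 4, where 3 rose and 4 fell, and 0.94 without AAV2-scramble 1 and 2, where 4 rose and 0 fell.

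Csf1, the growth factor that keeps macrophages and microglia alive, rose to 5.51 ± 0.439 FPKM in AAV2-shCX36 libraries, against 2.56 ± 0.534 FPKM in AAV2-scramble libraries (SD, n = 4 each, limma adjusted p = 0.00675). Ccl7, which encodes a CCR2 ligand, averaged 3.98 ± 1.22 FPKM in AAV2-shCX36 and 0.563 ± 0.651 FPKM in AAV2-scramble libraries (limma adjusted p = 0.0140), a call that was lost in limma-voom on recovered fragments (adjusted p = 0.0657). Ccl8, a neighbouring chemokine gene of the same family, averaged 2.58 ± 1.31 FPKM in AAV2-shCX36 libraries and had 1 fragment in all AAV2-scramble libraries together (limma adjusted p = 0.0136). The other CCR2 ligands did not pass the test. Ccl2 had 16.0, 8.88, 4.26 and 8.29 FPKM in AAV2-shCX36 libraries, against 6.69, 8.30, 3.34 and 1.62 FPKM in AAV2-scramble libraries, and the groups overlapped (limma adjusted p = 0.298). Ccl12, the other mouse ligand, averaged 6.19 ± 2.22 FPKM in AAV2-shCX36 and 6.11 ± 3.49 FPKM in AAV2-scramble libraries (limma adjusted p = 0.895).

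Several monocyte genes lay below 1 FPKM and were tested only in limma-voom on the recovered fragments, an alternative added after the data were seen, in which 268 of 17240 genes (1.55%) were higher and 3.19% passed in either direction. There, 2 of 7 such recruitment genes rose. Plac8, a gene of blood monocytes and other leukocytes, had 166, 33, 73 and 66 fragments in AAV2-shCX36 libraries, against 1, 0, 1 and 0 in AAV2-scramble libraries (voom adjusted p = 0.0457). Itgal, the alpha subunit of the leukocyte integrin LFA-1, had 477 fragments in all in AAV2-shCX36 and 102 in AAV2-scramble libraries (voom adjusted p = 0.0193).

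**Figure D2:**
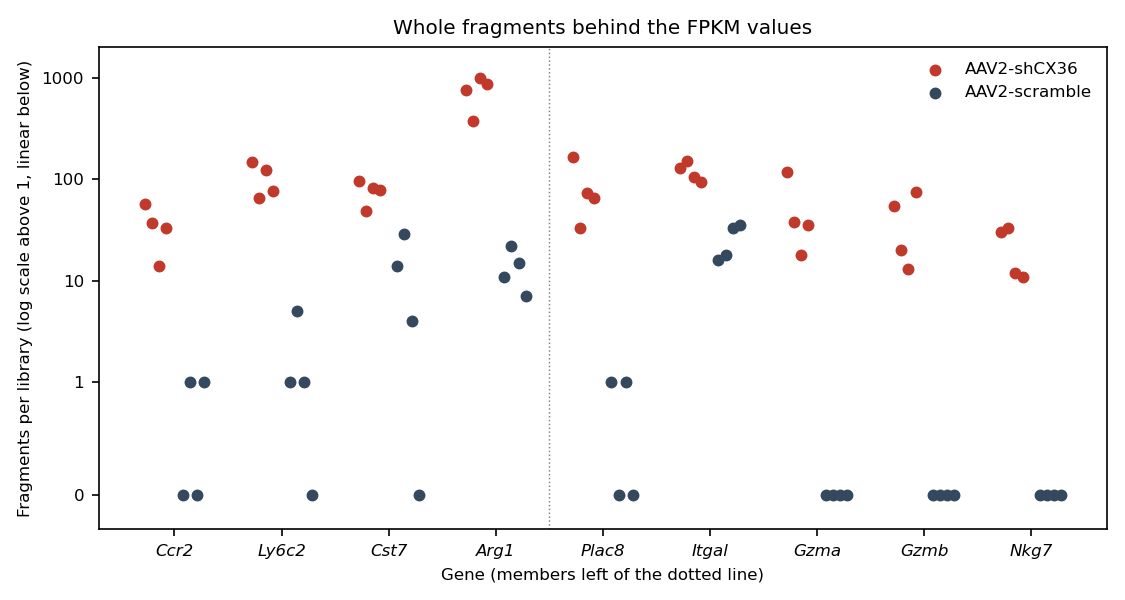
Whole fragments per library (log scale above 1, linear below) for 4 of the 9 genes, left of the dotted line, and for 5 leukocyte genes, right of it, with 1 point per library (AAV2-shCX36 red, AAV2-scramble dark). Ccr2, Ly6c2 and Plac8 have at most 5 fragments in any AAV2-scramble library, and Gzma, Gzmb and Nkg7 have 0.

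Other leukocytes also express Ccr2, Plac8 and Itgal, and transcripts of T and natural killer cells were higher in the same libraries. Of 13 such markers, 8 were higher in every AAV2-shCX36 library than in every AAV2-scramble library. Of all genes listed, 10.4% were separated in either direction. Of the 13, 9 (Cd3d, Cd3e, Cd3g, Cd8b1, Nkg7, Gzma, Gzmb, Ncr1 and Prf1) had 0 fragments in all AAV2-scramble libraries, where a count of 0 allows up to 3 per library. The share of all genes with 0 fragments there is not given, so nothing is read from this count or that of neutrophil markers below. Summed over the 13 markers, AAV2-shCX36 libraries held 5.02 to 13.2 FPKM and AAV2-scramble libraries 0.527 to 1.52 FPKM. Much of that sum was the chemokine gene Ccl5, which averaged 4.37 FPKM in AAV2-shCX36 and 0.687 FPKM in AAV2-scramble libraries. Gzma, a granule protease of killer cells, had 117, 38, 18 and 35 fragments in AAV2-shCX36 libraries (voom adjusted p = 0.0366), and Gzmb (163 fragments in all, voom adjusted p = 0.0394) and Nkg7 (86, voom adjusted p = 0.0246) also rose. These were 3 of 6 markers tested in voom. Cd4 and Cd8a did not pass there (voom adjusted p = 0.347 and 0.416), nor did Ccl5 (voom adjusted p = 0.107, limma adjusted p = 0.0300). Of 8 dendritic cell markers, 3 were higher in every AAV2-shCX36 library. They were Flt3 (969 fragments in AAV2-shCX36 and 589 in AAV2-scramble libraries), Ccr7 (150 in AAV2-shCX36 and 3 in AAV2-scramble libraries) and Cd209a (39 in AAV2-shCX36 and 0 in AAV2-scramble libraries), and 0 of the 5 tested passed in voom. Of 11 neutrophil markers, 5 (S100a9, Mpo, Camp, Ltf and Retnlg) had 0 fragments in all AAV2-scramble libraries and 1 to 23 each in AAV2-shCX36 libraries together, and S100a9 alone was higher in every AAV2-shCX36 library. Their sum, 7.11 to 8.89 FPKM in AAV2-shCX36 and 5.41 to 14.7 FPKM in AAV2-scramble libraries, was mostly Mmp9 and Csf3r and overlapped between the groups. The part of any of these cells in the levels of Ccr2 and the other genes was not tested.

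The markers of alternative activation did not move together. Arg1 (chr10:24915207-24927470) encodes arginase 1, the cytosolic enzyme that splits arginine into ornithine and urea. Its level was 13.6, 6.76, 18.2 and 15.5 FPKM in AAV2-shCX36 libraries, against 0.196, 0.415, 0.268 and 0.122 FPKM in AAV2-scramble libraries. The lowest AAV2-shCX36 library, number 2, still had 375 fragments, where no AAV2-scramble library had more than 22. The ratio of summed fragments, 2997 against 55, was 54.7 (exact interval 41.9 to 72.7), and the log2 difference was 3.47, or 3.31 to 3.74 with any 1 library left out.

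Chil3 (chr3:106147554-106167564) encodes Ym1, a chitinase-like protein without enzyme activity that macrophages and neutrophils secrete. It ran the other way, with 0.801, 0.0692, 0.878 and 0.259 FPKM in AAV2-shCX36 libraries, against 12.7, 9.05, 6.84 and 9.81 FPKM in AAV2-scramble libraries. In fragments these were 47, 4, 50 and 15 in AAV2-shCX36 libraries, against 740, 500, 399 and 588 in AAV2-scramble libraries. The AAV2-shCX36 mean was 5.24% of the AAV2-scramble mean, a log2 difference of -2.83 that stayed between -2.96 and -2.68 with any 1 library left out. The 4 control libraries varied less in Chil3 than in the summed pan-myeloid level: the highest had 1.85 times the lowest, and AAV2-scramble 4, with the lowest pan-myeloid sum, had the second highest Chil3 level.

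Within the AAV2-shCX36 group, libraries 1 and 3 had the most Chil3 and library 2 the least of both Chil3 and Arg1. Arg1 and Chil3 therefore ranked library 2 lowest alike, although between the groups they lay on opposite sides.

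Mrc1 (chr2:14229414-14332023), the mannose receptor of alternatively activated and border macrophages, had 0.395, 0.330, 0.910 and 0.355 FPKM in AAV2-shCX36 libraries, against 0.732, 0.875, 0.635 and 0.222 FPKM in AAV2-scramble libraries. AAV2-shCX36 3 stood above the other 3 of its group and AAV2-scramble 4 below all others, and the groups overlapped. The log2 difference was -0.11, and 0.07 without AAV2-scramble 1 and 2. Border macrophage markers, 9 genes with Mrc1 among them, summed to 5.67 to 7.04 FPKM in AAV2-shCX36 and 2.42 to 10.4 FPKM in AAV2-scramble libraries.

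Of 19 other genes of alternative activation, 9 were tested, 1 rose, 0 fell, and the median log2 difference was 0.05. The one that rose was Ccl24, an eotaxin gene, with 3.64, 0.854, 5.60 and 4.21 FPKM in AAV2-shCX36 libraries, against 0.0192, 0, 0.0192 and 0 FPKM in AAV2-scramble libraries (limma adjusted p = 0.0144), a call that was lost in voom (adjusted p = 0.112). As with Arg1, AAV2-shCX36 2 was the lowest of its group. Tgm2, transglutaminase 2, averaged 11.3 ± 3.54 FPKM in AAV2-shCX36 and 3.90 ± 2.47 FPKM in AAV2-scramble libraries without passing (limma adjusted p = 0.0553). Pdcd1lg2, the gene of PD-L2, had 60, 17, 45 and 27 fragments in AAV2-shCX36 libraries, against 0, 1, 0 and 0 in AAV2-scramble libraries, and rose in the voom fit (adjusted p = 0.0262). It alone rose there, of 16 genes of this list tested in voom, and 0 fell.

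Retnla, a secreted protein gene that interleukin 4 induces, was a matter of 1 library. It had 246 fragments in AAV2-shCX36 1 and 0, 2 and 5 in AAV2-shCX36 2, 3 and 4, against 0 in each AAV2-scramble library (limma adjusted p = 0.394). The cytokine genes had 0 fragments in every AAV2-scramble library. In AAV2-shCX36 libraries Il4 had 13, 10, 0 and 10 fragments. Il13 had 18, 101, 0 and 2, so that AAV2-shCX36 2, at 2.23 FPKM, held most of it.

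Of the 13 genes of the interleukin 4 and STAT6 pathway, 9 were tested, 1 rose and 0 fell (median log2 difference 0.18). Il2rg, the receptor chain shared by several cytokines that include interleukin 4, averaged 3.14 ± 1.56 FPKM in AAV2-shCX36 and 0.902 ± 0.334 FPKM in AAV2-scramble libraries (limma adjusted p = 0.0401), a call that was kept in 1 of 8 refits with a library left out and lost in voom (adjusted p = 0.0661). Stat6 itself averaged 9.88 ± 0.732 FPKM in AAV2-shCX36 and 9.06 ± 1.82 FPKM in AAV2-scramble libraries (limma adjusted p = 0.568).

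In the arginine and polyamine pathway, 15 genes other than Arg1 were tested, of which 0 rose and 1 fell, with a median log2 difference of 0.03. The gene that fell was Arg2, the mitochondrial arginase, which had 3.13, 2.97, 3.15 and 2.97 FPKM in AAV2-shCX36 libraries, against 4.40, 5.43, 5.64 and 6.50 FPKM in AAV2-scramble libraries (log2 difference -0.67, limma adjusted p = 0.0123). The mean of Arg1 was thus above that of Arg2 in AAV2-shCX36 libraries and below it in AAV2-scramble libraries. Odc1, ornithine decarboxylase, which acts on the ornithine that arginase makes, averaged 44.2 ± 3.98 FPKM in AAV2-shCX36 and 34.4 ± 4.43 FPKM in AAV2-scramble libraries and did not pass (limma adjusted p = 0.0793).

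Of the chitinase family, 2 genes other than Chil3 were tested, 0 passed in limma or voom, and 1 had an unadjusted p under 0.05 in limma. Chil1, which encodes a chitinase-like protein that reactive glia and macrophages make, had 134, 11.5, 5.01 and 16.6 FPKM in AAV2-shCX36 libraries, against 4.37, 8.91, 3.32 and 3.13 FPKM in AAV2-scramble libraries (limma adjusted p = 0.212). The mean was set by AAV2-shCX36 1, the library that also held nearly all Retnla fragments.

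Among 9 tested genes of classical activation, 1 rose and 0 fell, and the median log2 difference was -0.29, or 0.32 without AAV2-scramble 1 and 2. Without AAV2-scramble 3 and 4 this median was -0.83, with 1 called higher and 5 called lower. After rescaling to TPM the median was 0.12, but the minimum mean of 1 was then taken in TPM. That let in lower genes, 15274 in place of 12858 over all genes, so this value is not one for the same 9. Il1b, the gene of the inflammatory cytokine interleukin 1 beta, had 8.71, 3.52, 3.31 and 5.95 FPKM in AAV2-shCX36 libraries, against 1.00, 1.14, 0.182 and 0.109 FPKM in AAV2-scramble libraries (log2 difference 1.97, limma adjusted p = 0.0132). Nos2, the inducible nitric oxide synthase that competes with arginase for arginine, had 260, 51, 58 and 108 fragments in AAV2-shCX36 libraries, against 27, 16, 21 and 5 in AAV2-scramble libraries. The Nos2 groups did not overlap, but the gene did not pass (voom adjusted p = 0.128). Ccl3, a chemokine gene of activated microglia, averaged 25.1 ± 7.63 FPKM in AAV2-shCX36 and 65.7 ± 42.2 FPKM in AAV2-scramble libraries (limma adjusted p = 0.283). Its log2 difference of -1.07 was -0.13 without AAV2-scramble 1 and 2, and the gene was called lower (adjusted p = 0.00193) without AAV2-scramble 3 and 4.

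**Figure D3:**
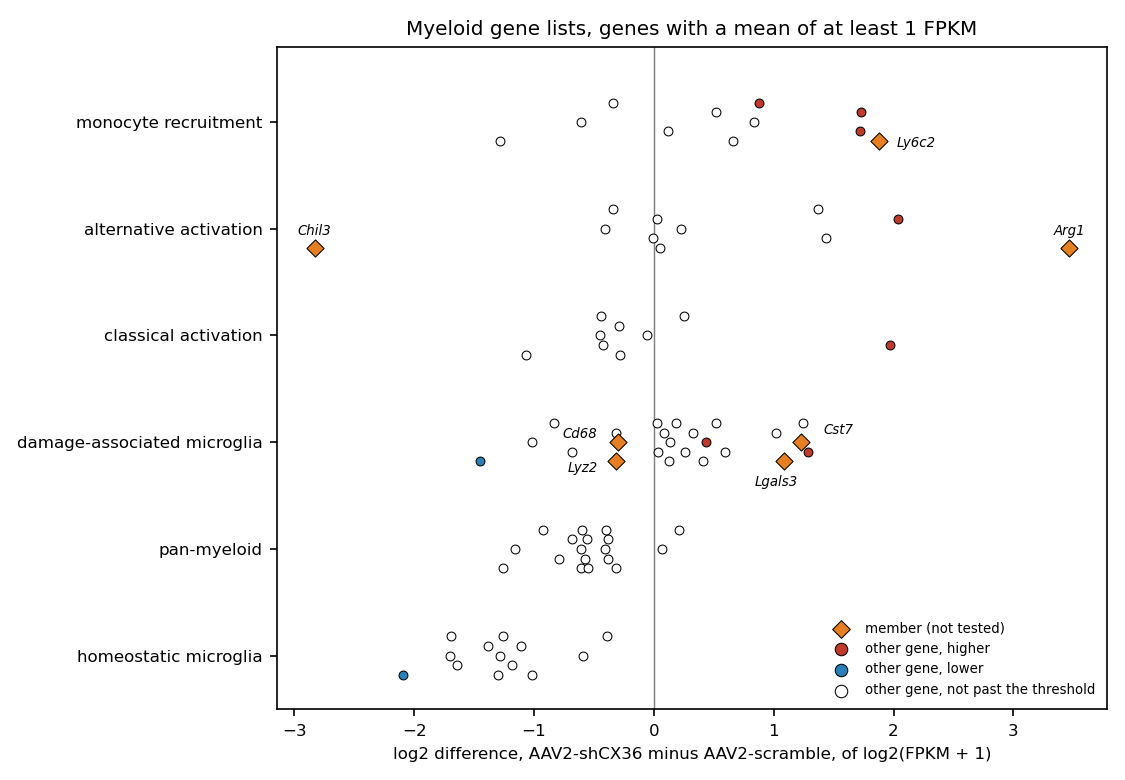
Difference between AAV2-shCX36 and AAV2-scramble (horizontal axis, log2(FPKM + 1) scale, positive where AAV2-shCX36 is higher) of each gene that reached a mean of 1 FPKM in 6 gene lists, 1 list per row. The genes chosen for description are diamonds and other genes circles, filled where limma's adjusted p was under 0.05. Arg1 and Chil3 lie at opposite ends of the alternative activation row, and 16 of 18 pan-myeloid and 13 of 13 homeostatic microglia genes lie left of 0.

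The damage-associated genes Cst7 and Lgals3 were both higher. Cst7 (chr2:150570415-150578944) encodes cystatin F, which inhibits cathepsins inside lysosomes of immune cells. It had 2.55, 1.32, 2.22 and 2.13 FPKM in AAV2-shCX36 libraries, against 0.374, 0.820, 0.107 and 0 FPKM in AAV2-scramble libraries. Within the controls it followed the pan-myeloid level in part, being higher in AAV2-scramble 1 and 2 than in 3 and 4. The log2 difference was 1.23, which became 1.52 without AAV2-scramble 1 and 2, or 0.93 with them and without AAV2-scramble 3 and 4. Cytotoxic lymphocytes also express Cst7, and their markers, given above, were higher in the same libraries.

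Lgals3 (chr14:47373860-47386167) encodes galectin 3, a sugar-binding protein of phagocytes. Its level was 7.43, 3.14, 3.94 and 6.76 FPKM in AAV2-shCX36 libraries, against 2.51, 1.88, 2.03 and 1.13 FPKM in AAV2-scramble libraries. AAV2-shCX36 1 and 4 were highest, and the lowest AAV2-shCX36 library, number 2, was near the highest AAV2-scramble library, number 1. The ratio of summed fragments, 1126 against 399, was 2.83 (exact interval 2.52 to 3.18), smaller than that of Cst7, at 6.51 (4.78 to 9.05). Genes of the lens, which is not retina, summed to 150 and 323 FPKM in AAV2-shCX36 1 and 4 and 14.1 and 21.3 FPKM in AAV2-shCX36 2 and 3, against 0.662 to 16.4 FPKM in AAV2-scramble libraries. Without AAV2-shCX36 1 and 4 the log2 difference of Lgals3 was 0.67 in place of 1.09, and the part of the lens RNA in it was not tested.

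Of 20 other damage-associated microglia genes, all tested, 2 rose and 1 fell, 9 had an unadjusted p under 0.05, and the median log2 difference was 0.16. Lilrb4a, an inhibitory receptor gene of myeloid cells, averaged 7.05 ± 0.996 FPKM in AAV2-shCX36 and 2.50 ± 1.30 FPKM in AAV2-scramble libraries (limma adjusted p = 0.0368). Fabp5, a fatty acid binding protein gene that is not limited to myeloid cells, averaged 38.2 ± 1.96 FPKM in AAV2-shCX36 and 28.1 ± 3.81 FPKM in AAV2-scramble libraries (limma adjusted p = 0.0363). Both calls were kept in 2 of 8 refits with a library left out, and that of Fabp5 was lost in voom (adjusted p = 0.0507). Ccl6, a chemokine gene of microglia and macrophages, fell to 1.52 ± 0.499 FPKM in AAV2-shCX36 libraries, against 6.17 ± 2.76 FPKM in AAV2-scramble libraries (limma adjusted p = 0.0213), a call kept in 4 of 8 refits and lost, at the very threshold, in voom with at least 10 fragments.

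Gpnmb and Ch25h did not pass, although their groups did not overlap. Gpnmb, a lysosomal glycoprotein gene, averaged 5.33 ± 2.56 FPKM in AAV2-shCX36 and 2.00 ± 0.640 FPKM in AAV2-scramble libraries (limma adjusted p = 0.0585). Ch25h, cholesterol 25-hydroxylase, averaged 2.60 ± 1.97 FPKM in AAV2-shCX36 and 0.390 ± 0.262 FPKM in AAV2-scramble libraries (limma adjusted p = 0.0623).

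The lists of genes related to both were mixed. Of 5 other genes tested in the galectin list, 1 rose, Lgals3bp, which encodes a secreted partner of galectin 3. It is not itself a galectin, and no other galectin tested passed. It had 59.1, 45.8, 50.6 and 38.1 FPKM in AAV2-shCX36 libraries, against 17.3, 15.4, 11.7 and 5.69 FPKM in AAV2-scramble libraries (log2 difference 1.95, limma adjusted p = 0.0102). Its AAV2-shCX36 levels were all above those of any control library, and the call was kept in 8 of 8 refits. Cst3, the cystatin C gene that microglia and neurons express, averaged 271 ± 54.8 FPKM in AAV2-shCX36 and 597 ± 219 FPKM in AAV2-scramble libraries and did not pass (limma adjusted p = 0.0572; 0.106 when AAV2-scramble 1 and 2 were left out, 0.00148 when AAV2-scramble 3 and 4 were). In the Ly6 family, 1 of 6 genes other than Ly6c2 rose, Lynx1, a neuronal modulator of nicotinic receptors, at 199.6 ± 11.4 FPKM in AAV2-shCX36 and 145 ± 21.8 FPKM in AAV2-scramble libraries (limma adjusted p = 0.0442, kept in 2 of 8 refits). Of 6 other scavenger and lectin receptor genes tested, 0 passed in limma and 1 had an unadjusted p under 0.05, and of 12 in the voom fit 0 passed.

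Cd68 and Lyz2, the general macrophage genes, did not separate the groups. Cd68 (chr11:69664213-69666170), a lysosomal membrane protein of phagocytes, had 13.1, 13.3, 14.5 and 15.3 FPKM in AAV2-shCX36 libraries, against 31.6, 28.4, 15.4 and 6.53 FPKM in AAV2-scramble libraries. The AAV2-shCX36 libraries were nearly alike (14.1 ± 1.03 FPKM), while the AAV2-scramble libraries spread widely on both sides of them (20.5 ± 11.7 FPKM). The log2 difference of -0.30 became 0.44 when AAV2-scramble 1 and 2 were left out, or -1.04 when AAV2-scramble 3 and 4 were. Lyz2 (chr10:117277541-117282272), the lysozyme of macrophages and granulocytes, had 35.6, 25.0, 25.9 and 35.1 FPKM in AAV2-shCX36 libraries, against 49.5, 50.2, 28.2 and 28.5 FPKM in AAV2-scramble libraries. Its log2 difference was -0.32, or 0.08 and -0.71 when the same pairs were left out. Its near-copy Lyz1 had at most 4 fragments in any library.

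None of the 18 pan-myeloid genes passed (limma, 0 at an adjusted p under 0.05 and 2 at an unadjusted p under 0.05; voom, 0). Their median log2 difference was -0.57, with 16 of 18 negative. Without AAV2-scramble 1 and 2 it was 0.07, with 6 of 18 negative and 0 called, and without AAV2-scramble 3 and 4 it was -1.26, with 17 of 18 called lower. Csf1r, the receptor of Csf1, had 22.7, 26.1, 23.6 and 40.8 FPKM in AAV2-shCX36 libraries, against 115.9, 117.1, 57.3 and 25.8 FPKM in AAV2-scramble libraries (limma adjusted p = 0.141; 0.400 when AAV2-scramble 1 and 2 were left out, 0.00138 when AAV2-scramble 3 and 4 were). Like Cd68, it was highest in AAV2-scramble 1 and 2, and AAV2-scramble 4 lay within the AAV2-shCX36 range. The homeostatic microglia genes, 13 in all with Csf1r among them, had a median log2 difference of -1.28 with 1 that fell, P2ry12 (limma adjusted p = 0.0302), and a sum of 135 to 236 FPKM in AAV2-shCX36 libraries, against 677, 651, 328 and 152 FPKM in AAV2-scramble libraries. Their median was -0.47 without AAV2-scramble 1 and 2, with 1 called lower, and -2.04 without AAV2-scramble 3 and 4, with 13 called lower. The P2ry12 call was kept in 1 of 8 refits with a library left out and lost in voom (adjusted p = 0.0756), where 0 of the 13 passed.

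The 9 levels were also expressed as a percentage of the pan-myeloid sum of the same library. The sum varied far less than Arg1 or Chil3, so that their separation was bound to persist and nothing is read from it. For Arg1 this share lay between 1.97% and 5.15% in AAV2-shCX36 libraries and between 0.0187% and 0.0480% in AAV2-scramble libraries. For Chil3 it lay between 0.0201% and 0.248% in AAV2-shCX36 libraries and between 0.908% and 3.81% in AAV2-scramble libraries, the highest being AAV2-scramble 4. Cd68, which overlapped between the groups before and after scaling, was 2.92% to 4.08% of the sum in AAV2-shCX36 libraries and 2.53% to 3.02% in AAV2-scramble libraries, with no control library far from the others once scaled in this way. Lgals3 was 0.915% to 2.03% in AAV2-shCX36 and 0.189% to 0.440% in AAV2-scramble libraries, and Cst7 was 0.385% to 0.699% in AAV2-shCX36 and 0 to 0.0822% in AAV2-scramble libraries.

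**Figure D4:**
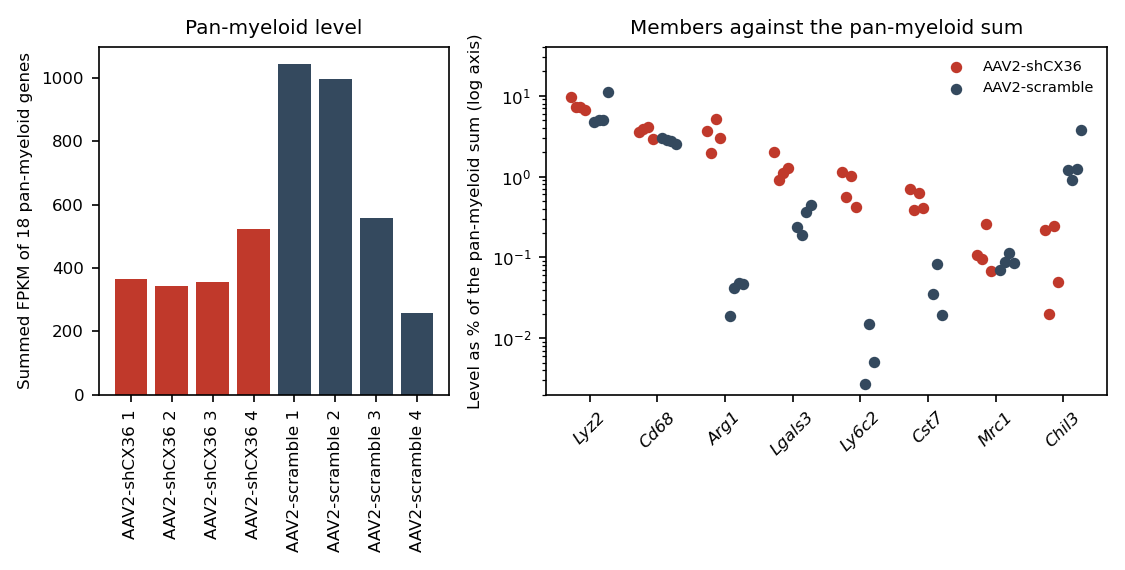
Left, summed FPKM of the 18 pan-myeloid genes in each library; right, level of 8 of the 9 genes as a percentage of that sum (log axis, 1 point per library, values of 0 left out, Ccr2 not drawn), with AAV2-shCX36 in red and AAV2-scramble dark. The sum is 344 to 524 FPKM in AAV2-shCX36 and 258 to 1046 FPKM in AAV2-scramble libraries, and Arg1, Lgals3, Ly6c2, Cst7 and Chil3 remain apart after scaling while Cd68, Lyz2 and Mrc1 overlap.

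The order of the 9 levels differed between the groups. Lyz2 was the highest in all 8 libraries. In AAV2-shCX36 libraries Arg1 came directly below it in 3 libraries and below Cd68 in number 2, and its range overlapped that of Cd68. In AAV2-scramble libraries Arg1 lay below Lgals3 and Mrc1, and the place beside Cd68 was taken by Chil3, just below it in 3 libraries and above it in number 4. Chil3 lay below Cst7 in all AAV2-shCX36 libraries, where it could not be separated from Mrc1 by its spread. Lgals3 held the same place in every library, and its AAV2-shCX36 range overlapped those of its neighbours by mean, Arg1 and Ly6c2. In AAV2-scramble libraries its range (1.13 to 2.51 FPKM) met neither that of Chil3 above it nor that of Mrc1 below it.

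Profiles over the 8 libraries were compared only with those of genes whose mean reached 1 FPKM. The one most like Arg1 was that of H2-Q7, a class I histocompatibility gene. Their root mean square difference was 0.117, with profiles scaled to mean 0 and SD 1. Serpina3g, a protease inhibitor gene, followed at 0.134, and Ly6c2 itself came next at 0.206. H2-Q7 averaged 3.48 ± 0.942 FPKM in AAV2-shCX36 and 0.133 ± 0.145 FPKM in AAV2-scramble libraries. H2-Q7 was also the gene most like Ly6c2 (0.130), before Nipa1 (0.177). The nearest to Chil3 was the gene model Gm2423 (0.160), at 1.54 ± 0.522 FPKM in AAV2-shCX36 and 13.1 ± 3.40 FPKM in AAV2-scramble libraries, before Taok3 and Map4k3.

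For Cst7 the nearest were Bak1 (0.109) and the class II histocompatibility genes H2-Aa and H2-Ab1, and for Lgals3 they were Pcyox1l (0.125), Ifi207 and Fbxw8. Cd68 was nearest to 3 genes that leukocytes express, Cd84 (0.114), Adcy7 and Fcer1g. Lyz2 was nearest to Bhlhe23 (0.171), Tspan15 and Tmed4. Mrc1 and Ccr2 lay farther from their nearest genes, LOC115487194 and Snapc1, at 0.362 and 0.269. Genes as low as Ccr2 were not among those searched, so a closer match below 1 FPKM is not excluded. These distances are descriptions over 8 libraries that fall into the same groups, and C1ra and Pex16 completed the list of Ccr2 and Tfap4 and Gm38983 that of Mrc1.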

How the data were processed

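Per the labels' protocols, retinal RNA (RNeasy Micro Kit) was read as 150 bp pairs. The submitters' processing notes name fastp, HISAT2, HTSeq, R 3.2.0, DESeq2 and the builds GRCm38 and mm10. The strand setting of the counting is not stated there. The values are FPKM, deposited by the authors as 1 table of 24860 symbols by 8 libraries, with 0 value columns of no sample. Of these symbols, 24027 matched RefSeq.

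Libraries were grouped by their titles. log2(FPKM + 1) of the 12858 genes whose mean reached 1 FPKM was fitted with limma 3.58.1 (R 4.3.3, lmFit and eBayes with trend), with Benjamini-Hochberg adjustment over all of them. FPKM are not counts, so the whole fragments recovered from them were used for counting intervals, and for limma-voom (mean of at least 10 fragments) only as an added alternative. Intervals and the limit of 3 fragments that a 0 allows cover counting error only. The fit was tested on simulated data.

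The 9 genes and all lists were chosen with earlier results of these data known. Named genes are the 9, every called gene of the lists, up to 3 more of each by smallest p, the near-copies, the CCR2 ligands and, for each of the 9, the 3 tested genes with the nearest profile; a few results under this rule are not reported here. Genes named with fragments, the T and natural killer cell markers, P2ry12 and Nos2 were added with their values known. The settings varied were pseudocounts of 0.1 and 0.5, no filter, a filter of 5 FPKM, median-of-ratios scaling, rescaling to TPM, no variance trend, robust eBayes, the replicate block, and libraries left out singly or in pairs. Python 3.11.15, pandas 2.3.3, numpy 2.4.6, scipy 1.17.1, Biopython 1.88 and matplotlib 3.10.9 were used.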

Additional observations from a re-analysis of the deposited data

Results flagged for a closer look

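In 66 values per group, 132 groups of 4 libraries, 9 had 1 library farther from the other 3 than Dixon's critical value at the 95% level allows, where chance gives about 1 in 20. In AAV2-shCX36 1, Retnla had 23.9 FPKM where the other 3 had 0 to 0.492, Chil1 had 134 FPKM (others 5.01 to 16.6), Tgm2 had 16.6 FPKM (8.97 to 10.2) and Ly6e had 63.0 FPKM (51.2 to 52.3). In AAV2-shCX36 4, Csf1 was low at 4.86 FPKM (5.67 to 5.82), while Ly6c1 at 28.2 FPKM (13.4 to 14.6) and the pan-myeloid sum at 524 FPKM (344 to 366) were high. In AAV2-shCX36 3, Mrc1 had 0.910 FPKM (0.330 to 0.395). In AAV2-scramble 4, Ccl8 had 0.0502 FPKM, which is 1 fragment, where the other 3 had 0.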

How the results depend on the processing

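The log2 differences of Ly6c2, Chil3, Arg1, Cst7 and Lgals3 kept their sign under every alternative that was run for them, and those of Cd68 and Lyz2 turned positive without AAV2-scramble 1 and 2. Over all genes, the 288 higher and 324 lower became 177 and 134 without a filter, 107 and 57 with the replicate block, and 76 and 30 without AAV2-shCX36 1 and 4. The counts became 1536 and 1905 when AAV2-scramble 3 and 4 were left out. Without AAV2-scramble 1 and 2, 554 were higher and 388 lower. With any 1 library left out, 101 to 573 were higher and 70 to 589 lower. Over the 92 genes of the 5 myeloid lists without the 9, 65 were tested, and 7 were higher and 1 lower (12.3%; 19 at an unadjusted p under 0.05). The 7 became 2 with a filter of 5 FPKM, 0 without AAV2-shCX36 1 and 4, and 3 to 8 with any 1 library left out. The 1 became 0 without a filter, with a filter of 5 FPKM, with the replicate block, without AAV2-shCX36 1 and 4, and in voom with at least 10 fragments. It became 31 without AAV2-scramble 3 and 4, and 0 to 19 with any 1 left out. Ly6c1 reversed to a log2 difference of -0.97 without AAV2-scramble 3 and 4. The cause was not tested.

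Csf1, Ccl8, Il1b, Arg2 and Lgals3bp were called in 8 of 8 refits with 1 library left out, Ccl24 in 7 and Ccl7 in 6, the last 2 losing the call without AAV2-shCX36 1. Libraries of the same number did not deviate together in a constant direction (correlations of 0.13, -0.30, 0.23 and -0.27). The labels do not say whether the number pairs libraries, so the replicate block is given only as a setting. Depth limits Ccr2, Il4 and Il13, where 1 fragment changes a control level.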
